A study of Canis lupus familiaris with 6 samples.

Results

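Interferon-stimulated genes are the antiviral and antigen-processing genes whose transcription rises when a cell senses interferon. They were followed here in MDCK type II cells, an epithelial line from dog kidney, with and without E-cadherin, the adhesion receptor of epithelial junctions encoded by CDH1. A list of 49 such genes was looked up by symbol in the deposited table of 12851 genes. Of these, 34 had a row, each with a single row, and all 34 were tested among 12349 genes. The other 15 matched no symbol and are not analysed here: IRF7, RIGI, DDX60, IFIT1, IFIT2, IFIT5, MX2, SAMD9, PARP10, TAP1, IFI44, IFI44L, IFI6, XAF1 and LGALS3BP. The rule that picks the members is the list of names and uses no measured value, though the list was drawn up with earlier results of these data known.

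RNA came from 3 libraries of unmodified control cells (WT) and 3 libraries of E-cadherin loss-of-function cells (KO), all from the MDCK type II line, and the labels give no interferon, virus or other agent for either group. The number of KO clones and the use of separate cultures are not stated in the labels, so a p-value here covers the spread among the libraries and no more, and that spread may be technical. Cell density is not settled either, since the labels give both confluent dishes and 70 to 80% confluency. Values are normalized counts, with library totals of about 19248240, 19002400 and 19386800 in WT and 18281550, 18452790 and 18681820 in KO. Every KO total thus lay below every WT total. The targeted transcript, CDH1, fell from 38542, 39643 and 39370 normalized counts in WT to 1115, 1120 and 1237 in KO. Libraries of a group correlated across genes at 0.987 to 0.991 and those of different groups at 0.934 to 0.940. EPCAM and KRT18 were abundant in both groups and did not pass the test. Of 15 tested epithelial markers, 2 rose, 9 fell and 4 did not pass, while 23.6% of all tested genes rose and 24.5% fell. Besides CDH1, the largest fall was that of CLDN2 (3.71-fold), and CDH16 and PAX8 rose. The summed level of the 15 markers, CDH1 included, was 101575 to 105179 in WT and 55479 to 57829 in KO. Most of that difference is the targeted CDH1 itself, with a mean of 39185 in WT and 1157 in KO. Of 25 leukocyte and dendritic cell markers looked up, 5 had a row and 4 rose, among them CD14, from 22.8, 17.7 and 20.6 to 48.1, 46.8 and 49.8. Their summed level was 52366 to 57416 in WT and 57268 to 64599 in KO, nearly all of it CD74 and CD79A, and 234 to 268 against 362 to 376 without those genes. Of 14 endothelial and fibroblast markers looked up, 2 had a row: FLT1 fell from 5245, 5443 and 5403 to 2998, 2780 and 2970, and PDGFRA rose from 18.3, 17.7 and 20.6 to 35.4, 28.7 and 40.4. Their summed level was 5263 to 5461 in WT and 2809 to 3033 in KO. PTPRC, CD3E, ITGAM, CD68, SPI1, PECAM1, CDH5 and VWF were not analysed here, and the part of such markers in the results was not tested.

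Type I interferons act through receptors that switch on the kinases JAK1 and TYK2, which phosphorylate STAT2 among other substrates. STAT2 and IRF9 are part of a transcription factor complex that binds the promoters of interferon-stimulated genes, while IRF1 acts on an overlapping set that includes genes of antigen processing. Many of the products find, bind or destroy foreign RNA, some tag proteins with the ubiquitin-like protein ISG15, and others cut proteins into peptides for display to T cells. Epithelial cells keep a low level of many of these transcripts without infection.

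These genes did not move as a unit between WT and KO cells. Of the 34 members, 9 rose in KO, 15 fell and 10 did not pass (limma on log2(normalized count + 1), Benjamini-Hochberg adjusted p under 0.05 over all 12349 genes). Among all tested genes 48.1% were called, 23.6% higher and 24.5% lower. By role, all 3 antigen-processing members rose, while the 2 RNA sensors and 5 of the 6 members of the ISG15 system fell. The median log2 fold change of the 34 members was -0.13, beside -0.01 for all tested genes. It was -0.19 without WT replicate 2 and -0.07 with libraries rescaled to equal totals. That rescaling moved the median of all tested genes to 0.046 and the split of all tested genes from 2920 higher and 3021 lower to 3572 and 2371. Changes of at least 1.5-fold were made by 3 members upwards and 6 downwards, while 10.4% of all tested genes rose and 6.6% fell by that much. At least 2-fold changes were fewer: PSMB9 among those higher, and USP18, ISG15, DHX58 and HERC5 among those lower. Over all tested genes, 5.34% rose and 3.33% fell by at least that much. As the RNA came from whole cultures, fewer cells carrying a transcript and less transcript per cell cannot be told apart.

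**Figure D1:**
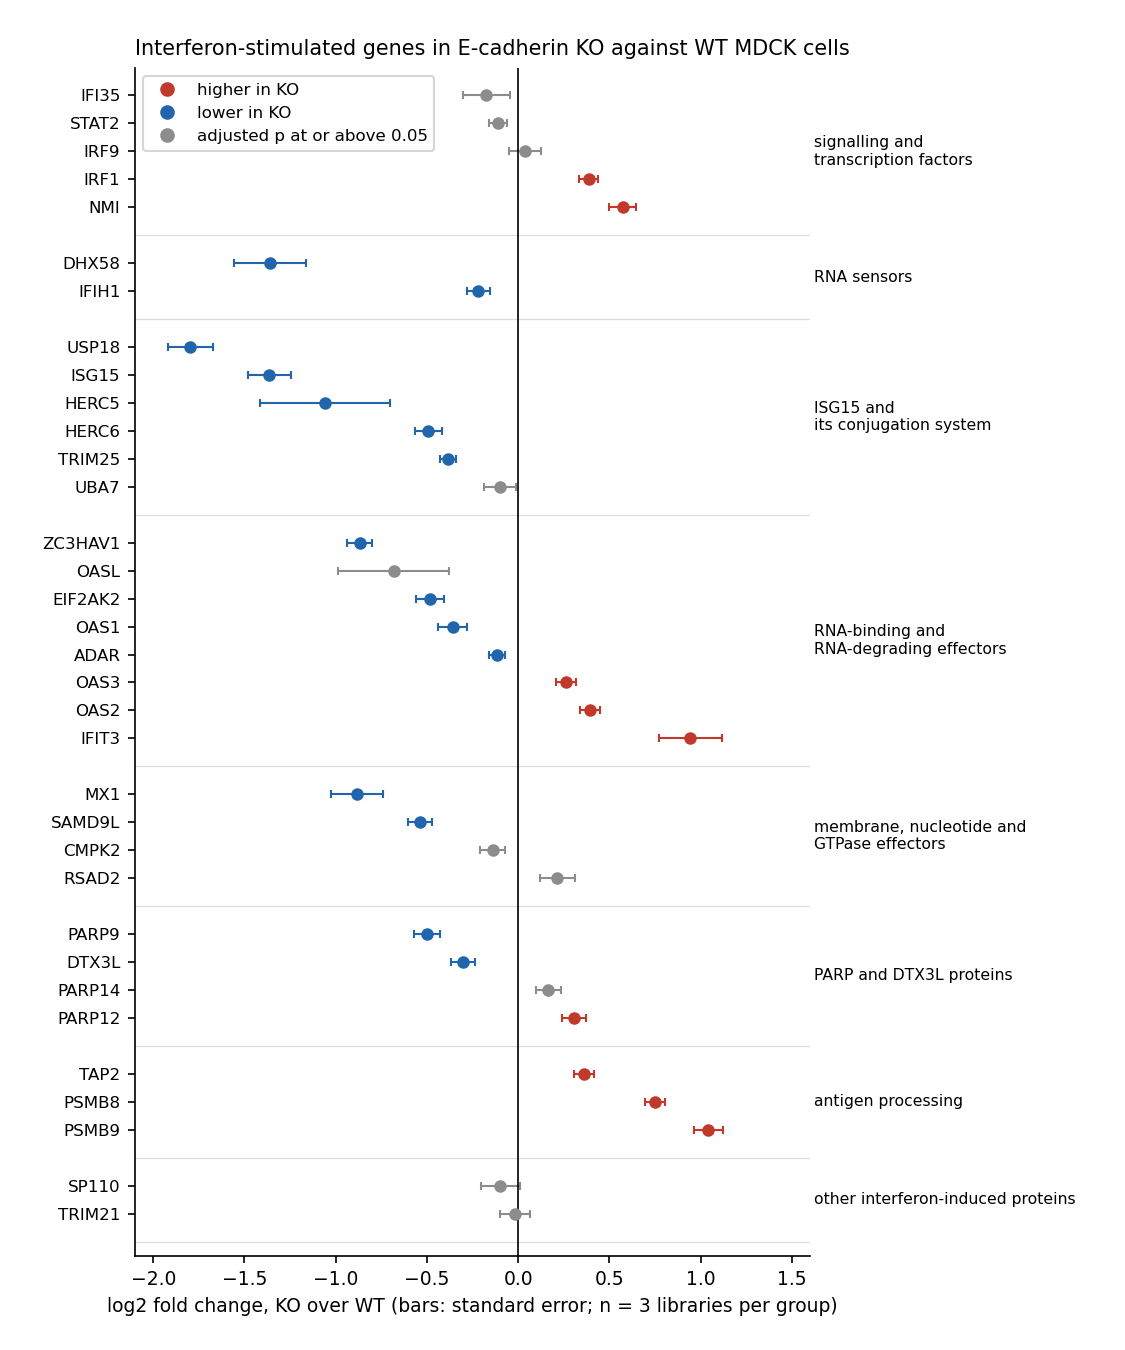
Log2 fold change of KO over WT (horizontal axis) for the 34 interferon-stimulated genes, with standard errors as bars and 3 libraries per group, grouped by role and coloured by call. The ISG15 system and RNA sensors lie to the left, down to -1.80 for USP18, and the antigen-processing genes to the right, up to 1.04 for PSMB9.

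The factors that carry the interferon signal to DNA stayed near their WT level or rose. STAT2 (ENSCAFG00845008098), a subunit of that complex, was at 1487, 1451 and 1509 normalized counts in WT and 1402, 1378 and 1340 in KO. Every KO library lay below every WT library, by a log2 fold change of -0.11 (SE 0.050) that did not pass (adjusted p = 0.0886). IRF9, the DNA-binding subunit of the same complex, was at 1035, 852 and 1126 in WT against 1032, 1035 and 1005 in KO, so that the groups overlapped (log2 fold change 0.04, adjusted p = 0.746).

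IRF1 (ENSCAFG00845010474), a transcription factor induced by interferon and by inflammatory signals, rose. It stood at 2409, 2252 and 2465 in WT against 3031, 3210 and 3067 in KO, with no overlap and a 1.31-fold rise (log2 fold change 0.39, SE 0.050, adjusted p = 2.49e-05). NMI, a protein that binds STAT factors, went from 552, 639 and 617 to 954, 874 and 861 (1.49-fold, adjusted p = 2.06e-05), again without overlap. Its binding partner IFI35 was at 158, 117 and 149 in WT against 123, 125 and 125 in KO and did not pass (adjusted p = 0.291).

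Both RNA sensors fell, by very different amounts. DHX58 (ENSCAFG00845010366), the LGP2 helicase that regulates the other sensors, fell from 115, 79.6 and 96.2 to 47.1, 34.2 and 30.7. That is 2.57-fold lower (log2 fold change -1.36, SE 0.198, adjusted p = 7.37e-05), with the highest KO library well under the lowest WT library. IFIH1, which encodes the MDA5 sensor of long RNA duplexes, was at 805, 830 and 852 in WT against 699, 682 and 758 in KO (log2 fold change -0.22, adjusted p = 0.0124). The IFIH1 call was lost without KO replicate 2 (adjusted p = 0.0694).

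In the ISG15 system, USP18 had the largest fall of the 34 members, and ISG15 fell about as far as DHX58. ISG15 (ENSCAFG00845020316) is a ubiquitin-like protein joined to other proteins during the interferon response. It fell from 613, 477 and 572 to 182, 225 and 238, or 2.57-fold (log2 fold change -1.36, SE 0.116, adjusted p = 6.43e-07). USP18 (ENSCAFG00845030962) removes ISG15 from its targets and also restrains signalling at the receptor chain IFNAR2. It fell from 339, 347 and 418 to 90.2, 118 and 108, which is 3.47-fold (log2 fold change -1.80, SE 0.123, adjusted p = 4.86e-08). Neither gene had overlapping groups.

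The ligases of the system fell as well. HERC6, the main ISG15 ligase in mice, was at 991, 1108 and 1009 in WT against 789, 756 and 668 in KO (1.41-fold lower, adjusted p = 9.11e-05). HERC5, the main ISG15 ligase in human cells, was scarce, at 22.8, 26.5 and 28.3 in WT against 20.6, 6.30 and 12.5 in KO. Its log2 fold change of -1.06 (SE 0.358, adjusted p = 0.0263) went to -0.65 without KO replicate 2, which has the lowest value, and the call was then lost (adjusted p = 0.107). It was also lost without WT replicate 2 (adjusted p = 0.0513) or WT replicate 3 (adjusted p = 0.0712), in a fit by limma with neither trend nor robust options (adjusted p = 0.0696), and in the authors' deposited table (adjusted p = 0.0609). TRIM25, a ubiquitin and ISG15 ligase that also assists RNA sensing, fell from 5749, 5771 and 5755 to 4194, 4489 and 4544 (1.31-fold, adjusted p = 7.08e-06). UBA7, the enzyme that activates ISG15, was at 443, 374 and 436 in WT against 388, 366 and 414 in KO, overlapping groups that did not pass (adjusted p = 0.373).

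**Figure D2:**
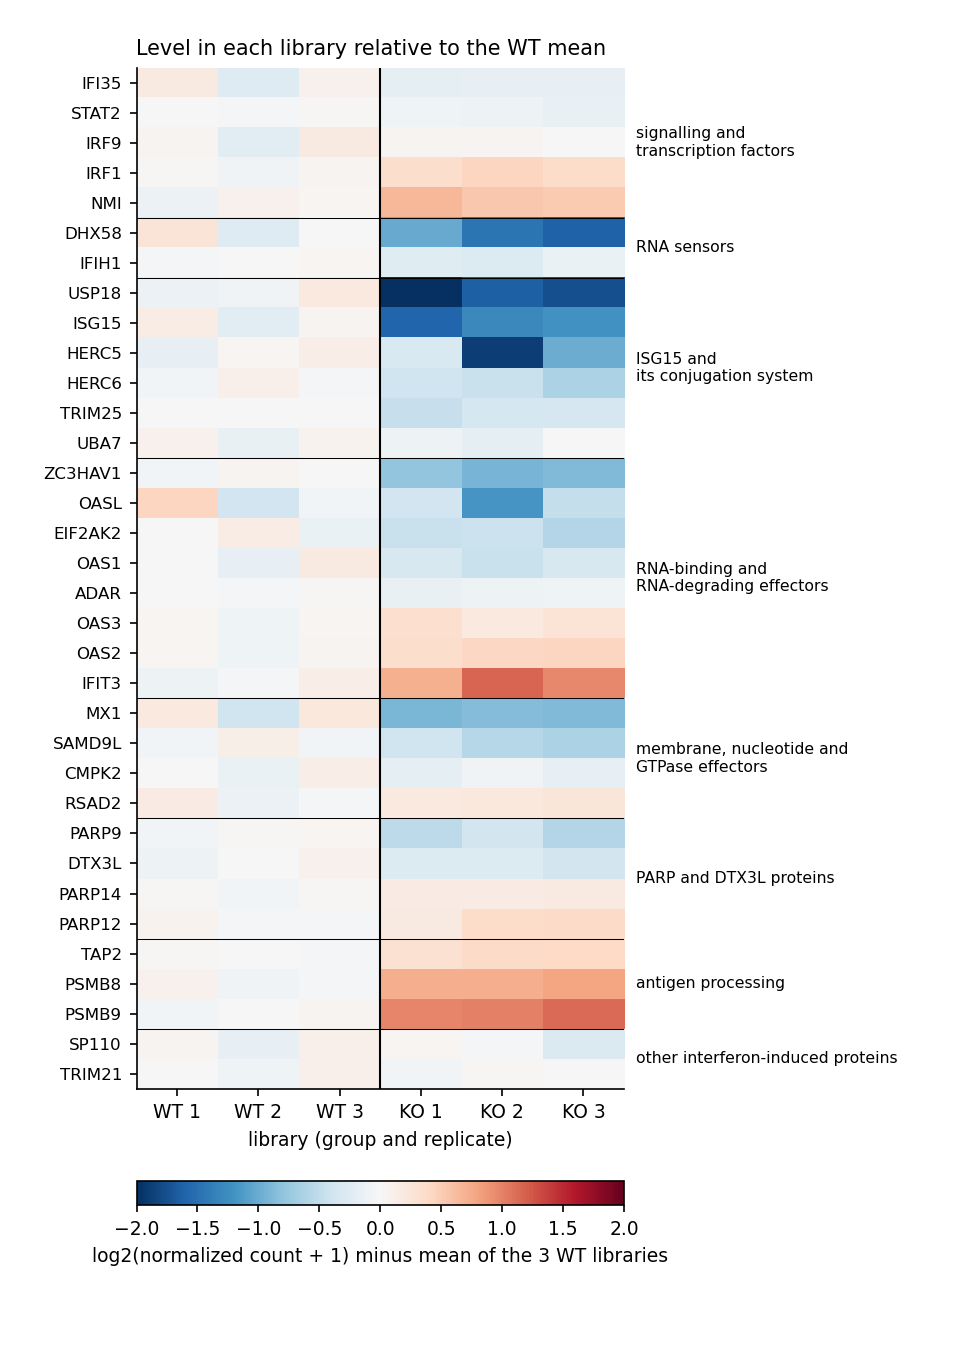
Colour gives log2(normalized count + 1) in each of the 6 libraries minus the mean of the 3 WT libraries, for the 34 genes (rows) ordered by role. The KO columns are blue for the ISG15 system other than UBA7, which stays near the WT mean with a log2 fold change of -0.10. USP18 and ISG15 have log2 fold changes of -1.80 and -1.36. The KO columns are red for PSMB9, PSMB8 and TAP2 at 1.04, 0.75 and 0.36.

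Among the proteins that bind or degrade RNA, 3 members rose, 4 fell and 1 did not pass. ZC3HAV1 (ENSCAFG00845005740), the zinc-finger antiviral protein that directs decay of CpG-rich RNA, fell from 771, 840 and 804 to 464, 423 and 434. The groups were far apart next to the spread within them, a 1.83-fold difference (log2 fold change -0.87, SE 0.069, adjusted p = 2.05e-07). EIF2AK2, the kinase PKR that stops translation when it binds RNA duplexes, was at 961, 1079 and 884 in WT against 714, 722 and 649 in KO (1.40-fold lower, adjusted p = 0.000164). ADAR, an enzyme that edits adenosine in RNA duplexes, was at 3299, 3269 and 3358 against 2975, 3077 and 3110. Its small fall (log2 fold change -0.12, adjusted p = 0.0421) had no call with libraries rescaled to equal totals (log2 fold change -0.06, adjusted p = 0.237) or in 8 other alternatives, without each library but WT replicate 2 among them (adjusted p = 0.0570 to 0.147).

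The oligoadenylate synthetases make the messenger that activates the RNA-degrading enzyme RNase L, and they went in opposite directions. OAS1 (ENSCAFG00845021979) fell from 1358, 1221 and 1559 to 1101, 1013 and 1100 (1.28-fold, adjusted p = 0.00239). OAS2 (ENSCAFG00845022313) rose from 1982, 1818 and 2019 to 2473, 2569 and 2601 (1.31-fold, adjusted p = 3.35e-05). OAS3 rose from 2128, 1968 and 2147 to 2611, 2373 and 2503 (1.20-fold, adjusted p = 0.00125). No KO value of these genes lay within the WT range. OASL, a related protein that aids RNA sensing in human cells, was scarce, at 35.3, 19.5 and 24.9 in WT against 19.6, 10.8 and 18.2 in KO, and did not pass (log2 fold change -0.68, adjusted p = 0.0814), although it did without WT replicate 2 (adjusted p = 0.0389). IFIT3, a member of the family that binds viral RNA ends, rose from 37.7, 39.6 and 44.4 to 67.0, 92.0 and 79.4. This 1.92-fold rise (SE 0.173 on the log2 scale, adjusted p = 0.000501) came without overlap. For the OAS, IFIT and MX families, how reads were split among closely related copies is not known from the table.

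MX1 and SAMD9L fell. MX1 (ENSCAFG00845030104), a dynamin-like GTPase that blocks many RNA viruses, was at 551, 365 and 559 in WT against 257, 265 and 263 in KO. WT replicate 2 stood apart from the other WT libraries but still above every KO library (1.84-fold lower in KO, log2 fold change -0.88, SE 0.143, adjusted p = 0.000413). SAMD9L, a restriction factor of poxviruses that also limits growth, went from 4025, 4544 and 4039 to 3167, 2836 and 2697 (1.45-fold lower, adjusted p = 1.79e-05).

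RSAD2 and CMPK2, a neighbouring pair induced together by interferon, did not pass. RSAD2, viperin, which makes a chain-terminating nucleotide, was at 257, 212 and 224 in WT against 263, 267 and 272 in KO. All 3 KO values lay above the WT values (log2 fold change 0.21, adjusted p = 0.0819), and it passed without WT replicate 1 (adjusted p = 0.0345) and with libraries rescaled to equal totals (adjusted p = 0.0319). CMPK2, a nucleotide kinase that supplies viperin's substrate, was at 1282, 1176 and 1420 in WT against 1139, 1224 and 1150 in KO (log2 fold change -0.14, adjusted p = 0.113), overlapping groups that passed only without WT replicate 2 (adjusted p = 0.0114).

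PARP9 and DTX3L encode partners in a complex that modifies histones and ubiquitin, and both fell. PARP9 was at 691, 727 and 736 in WT against 497, 553 and 476 in KO (1.41-fold lower, adjusted p = 7.53e-05). DTX3L, the ubiquitin ligase of the complex, went from 846, 920 and 970 to 757, 752 and 706 (1.23-fold lower, adjusted p = 0.00206). The other measured ADP-ribosyl transferases of the list, PARP12 and PARP14, leaned the other way, PARP14 without passing. PARP12, which targets translation of viral RNA, rose from 1052, 978 and 979 to 1133, 1295 and 1303 (1.24-fold, adjusted p = 0.00166). PARP14 was at 460, 436 and 457 in WT against 503, 507 and 508 in KO. These groups did not overlap, yet the log2 fold change of 0.17 did not pass (adjusted p = 0.0587); it passed with libraries rescaled to equal totals (adjusted p = 0.0138), by TMM (adjusted p = 0.0423) or with neither trend nor robust options (adjusted p = 0.0285).

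Antigen processing showed the opposite pattern to the ISG15 system. PSMB8 (ENSCAFG00845018353) and PSMB9 (ENSCAFG00845018485) are catalytic subunits that replace constitutive ones in the immunoproteasome. PSMB9 rose from 238, 245 and 256 to 487, 497 and 542, which is 2.06-fold (log2 fold change 1.04, SE 0.080, adjusted p = 1.56e-07). PSMB8 rose from 1268, 1142 and 1181 to 1989, 1979 and 2071, or 1.68-fold (log2 fold change 0.75, SE 0.055, adjusted p = 9.50e-08). TAP2, a subunit of the transporter that carries peptides into the endoplasmic reticulum, went from 993, 971 and 955 to 1198, 1273 and 1286 (1.29-fold, adjusted p = 0.000110). KO and WT libraries were fully separated for all 3 genes.

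The remaining proteasome subunits of the same kind were read from a wider list of class I presentation genes. PSMB10, the third immunoproteasome subunit, rose from 797, 815 and 937 to 1349, 1417 and 1389 (1.63-fold, adjusted p = 1.18e-06). PSMB5, the constitutive counterpart of PSMB8, fell from 5101, 4931 and 5374 to 3463, 3535 and 3542 (1.46-fold, adjusted p = 3.15e-07). PSMB6, the counterpart of PSMB9, fell from 4320, 3844 and 4412 to 3566, 3644 and 3773 (log2 fold change -0.19, adjusted p = 0.0101). That call did not survive leaving out WT replicate 1 (adjusted p = 0.0552) or dropping the trend and robust options (adjusted p = 0.0645). PSMB7, the counterpart of PSMB10, did not pass (log2 fold change -0.07, adjusted p = 0.226). All 3 immunoproteasome subunits rose, and among the constitutive counterparts PSMB5 and PSMB6 fell.

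**Figure D3:**
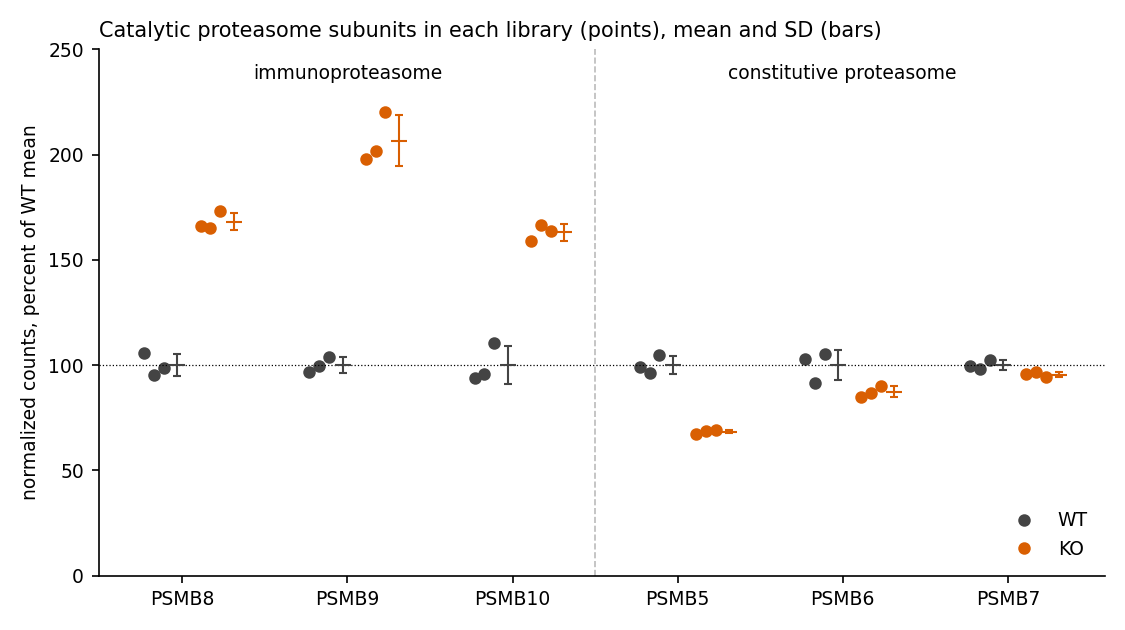
Normalized counts of 6 catalytic proteasome subunits as percent of each gene's WT mean, with the 3 WT and 3 KO libraries as points and mean and SD as bars. The immunoproteasome subunits PSMB8, PSMB9 and PSMB10 lie 1.68-fold, 2.06-fold and 1.63-fold above WT, while PSMB5 lies 1.46-fold below.

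TRIM21 and SP110 did not pass. TRIM21, a cytosolic antibody receptor and ubiquitin ligase, was at 328, 309 and 351 in WT against 316, 335 and 326 in KO (log2 fold change -0.02, adjusted p = 0.896). SP110, a nuclear body protein, was at 314, 267 and 325 against 309, 293 and 246 (log2 fold change -0.10, adjusted p = 0.481). Over the 10 members that did not pass, log2 fold changes ran from -0.68 for OASL to 0.21 for RSAD2. Groups were free of overlap for 27 of the 34 members, 11 with KO above and 16 with KO below, and for 56.4% of all tested genes, 27.8% with KO above and 28.6% with KO below. Standard errors of the members' log2 fold changes ran from 0.0436 to 0.358, with a median of 0.0731 beside 0.0777 over all tested genes. WT replicate 2 was the lowest WT library for 20 of the 34 members (58.8%), and for 40.8% of all tested genes. WT replicate 1 was lowest for 12 members (26.5% of all tested genes) and WT replicate 3 for 2 (32.6%). Without WT replicate 2, 9 members rose and 16 fell.

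The authors' deposited table gave 9 of the 34 members higher and 14 lower at an adjusted p under 0.05, and 21.9% and 23.1% of all tested genes. All 23 of these were called in the same direction here, and HERC5 was the further call. For USP18 the authors' deposited table has a log2 fold change of -1.80, for ISG15 -1.36 and for PSMB9 1.04.

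Several members lie side by side in the genome, which allows neighbours to be compared. By their order in the RefSeq annotation of dog assembly UU_Cfam_GSD_1.0, OAS1, OAS3 and OAS2 follow each other, and the fall of OAS1 sits beside the rises of the other two. The flanking genes RPL6 and PTPN11 did not pass, and RASAL1 on the far side fell (log2 fold change -0.38, adjusted p = 0.000114). PARP9 and DTX3L, which fell together, are followed by PARP15 and PARP14. PARP15, no member of the list, rose from 49.1, 36.2 and 33.7 to 105, 102 and 105 (2.62-fold, adjusted p = 1.49e-05). TAP2 and PSMB8 are adjacent and PSMB9 follows after TAP1, which is not analysed here. The 3 measured genes rose, whereas DLA-DMB, a class II loading gene just beyond PSMB9, fell 1.23-fold (adjusted p = 0.000665) and DLA-DMA did not pass (adjusted p = 0.126). DLA-DMA passed as higher with libraries rescaled to equal totals and without KO replicate 1 (adjusted p = 0.0301 to 0.0452). The HERC5 and HERC6 pair fell, next to PPM1K at 1.17-fold lower; the PPM1K call was lost in 4 alternatives, among them leaving out WT replicate 1 or KO replicate 2, with adjusted p of 0.0652 and 0.0611.

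Shifts shared by whole neighbourhoods were looked for around the members and around all placed genes. For each placed gene, the median log2 fold change was taken over up to 10 tested genes on either side with a mean of at least 100, a step added after the data were seen. It was 0.25 or more in size for 1 of the 34 members and for 5.48% of 9777 placed genes. The member was IRF1, with a log2 fold change of 0.39 beside a neighbourhood median of 0.26 over 17 genes. Within 3 places of IRF1, the tested genes were SLC22A4, 1.20-fold higher (adjusted p = 0.0107), and RAD50, which did not pass. Both lie on the same side of IRF1, and the genes within 3 places on its other side are not analysed here. For USP18, ISG15, DHX58 and PSMB9 the neighbourhood medians were -0.06, 0.11, 0.02 and 0.08.

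**Figure D4:**
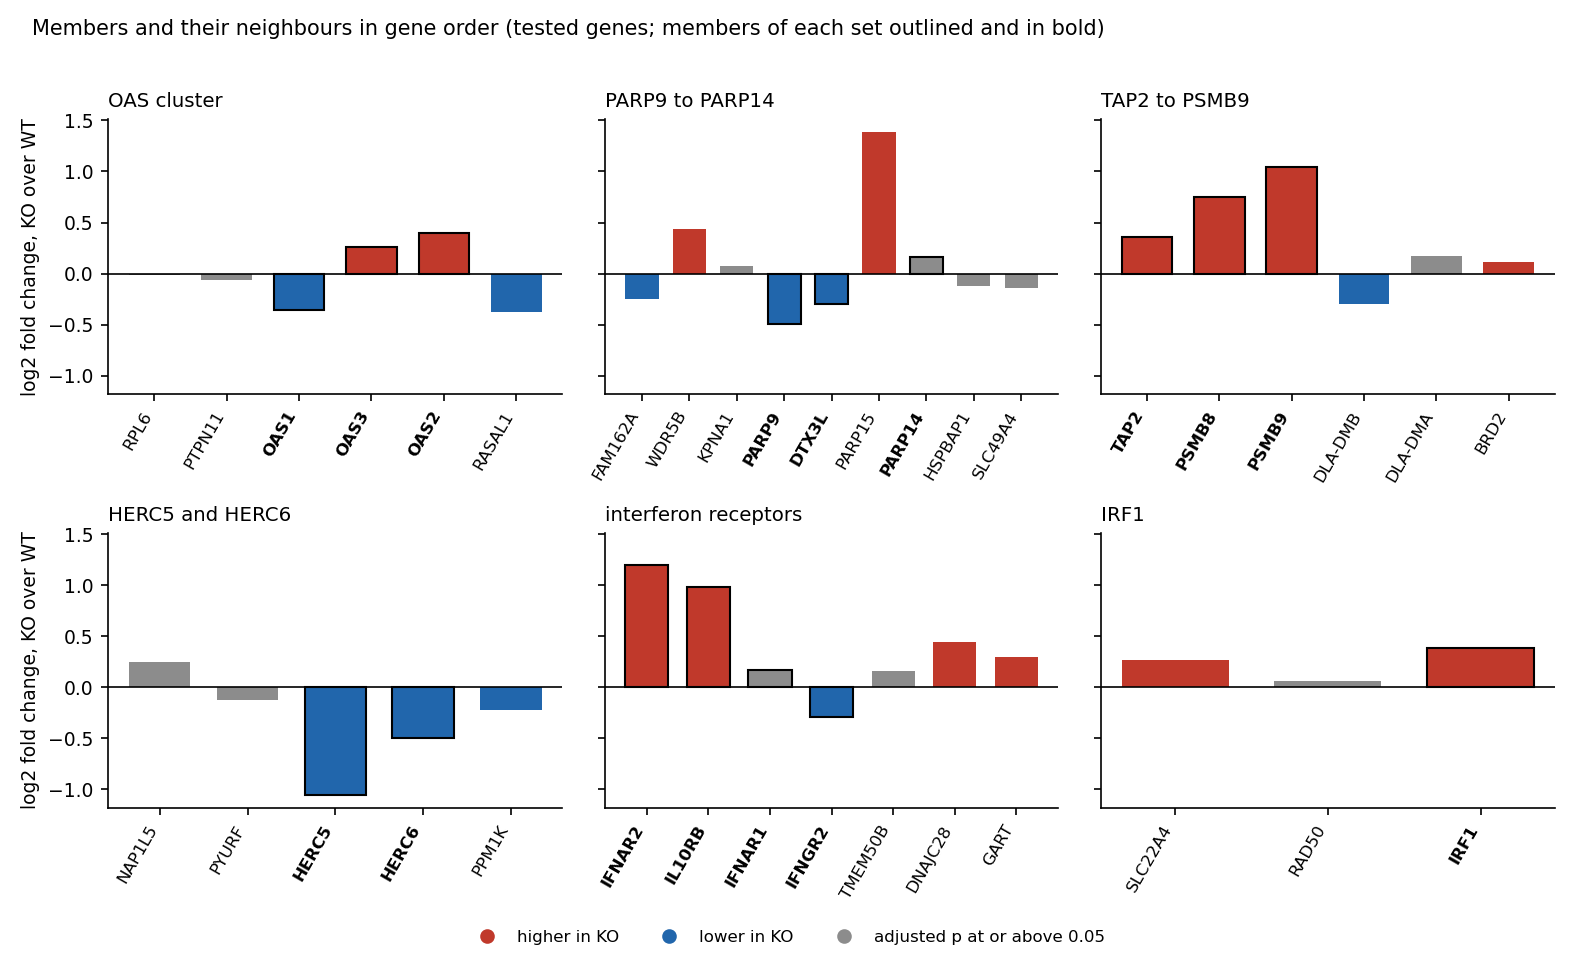
Log2 fold change of KO over WT (vertical axis) for tested genes in their order along the dog genome, in 6 neighbourhoods, with the named set outlined and in bold and flanking genes plain. OAS1 at -0.36 stands beside OAS3 at 0.26 and OAS2 at 0.39. IFNAR2 at 1.20 and IL10RB at 0.98 are followed by IFNAR1 at 0.17, which did not pass, and then IFNGR2 at -0.29.

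Of 13 tested receptor and JAK-STAT genes upstream of these, 3 rose, 3 fell and 7 did not pass. The share called was 46.2%, close to the 48.1% of all tested genes. IFNAR2, the signalling chain of the type I interferon receptor, rose from 147, 120 and 156 to 341, 326 and 303 (2.29-fold, adjusted p = 1.10e-06). IL10RB, a shared chain of the receptors for lambda interferons and IL-10, rose from 511, 523 and 528 to 1022, 1016 and 1047 (1.97-fold, adjusted p = 1.41e-08). Both were fully separated between the groups. IFNLR1, the chain specific to lambda interferons, was singled out with its values known. It fell from 90.0, 91.9 and 109 to 80.5, 71.1 and 68.1 (log2 fold change -0.40, adjusted p = 0.0346). The call was lost with libraries rescaled to equal totals (adjusted p = 0.0651), in the authors' deposited table (adjusted p = 0.0912), and when WT replicate 3, KO replicate 2 or KO replicate 3 was left out, with adjusted p of 0.130, 0.0922 and 0.0995. IFNAR1, the other type I chain, was at 1723, 1943 and 1710 in WT against 2149, 2055 and 1838 in KO, overlapping groups that did not pass (adjusted p = 0.0564). It passed with a replicate block (adjusted p = 0.0246), with libraries rescaled to equal totals (adjusted p = 0.0307), and when either WT replicate 2 or KO replicate 3 was left out, with adjusted p of 0.00634 and 0.0131. IFNGR2, a chain of the interferon gamma receptor, fell 1.22-fold (adjusted p = 0.000292). These 4 receptor genes are neighbours, in the order IFNAR2, IL10RB, IFNAR1 and IFNGR2. JAK1 did not pass (log2 fold change -0.07, adjusted p = 0.214), TYK2 fell 1.15-fold (adjusted p = 0.00643), and IRF8, a transcription factor best known from immune cells, rose from 25.1, 24.8 and 29.2 to 66.7, 69.2 and 87.2.

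Among 12 tested genes that sense nucleic acids and switch on interferon itself, 4 rose, 1 fell and 7 did not pass, so that 41.7% were called beside 48.1% of all tested genes. IKBKE, a kinase that activates IRF3, rose 1.34-fold (adjusted p = 5.21e-05), and IRF5 rose 1.82-fold (adjusted p = 0.00489). MAVS, the adaptor that RNA sensors signal through, rose 1.31-fold (adjusted p = 0.000212), in a neighbourhood whose median log2 fold change was 0.97. TLR9, a sensor of DNA, fell from 30.8, 21.2 and 30.1 to 11.8, 10.8 and 16.3 (adjusted p = 0.00772), a call not made in the authors' deposited table (adjusted p = 0.0509). IRF3 had overlapping groups and did not pass (adjusted p = 0.961). TLR3 missed the threshold (adjusted p = 0.0623) but passed without WT replicate 3 (adjusted p = 0.0148) and with a replicate block (adjusted p = 0.0311). CGAS and STING1 are not analysed here. Of 12 interferon genes looked up, IFNK had a row, under the filter on low values. It was named after its values were seen, at 10.2, 16.2 and 11.2 in WT against 4.90, 3.59 and 2.86 in KO. The authors' deposited table has IFNK lower (log2 fold change -1.74, adjusted p = 0.0152).

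Inhibitors of the pathway held 3 higher, 2 lower and 6 not passing of 11, or 45.5% called, close to the 48.1% of all tested genes. PTPN2, a phosphatase that acts on JAK1, fell from 1175, 1299 and 1160 to 908, 808 and 790 (1.45-fold, adjusted p = 2.46e-05), in a neighbourhood with a median log2 fold change of -0.48. PTPN6 fell 1.39-fold (adjusted p = 0.00234), and the STAT inhibitors PIAS2 and PIAS1 rose by log2 fold changes of 0.39 and 0.38 (adjusted p = 0.000921 and 0.00113).

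Further interferon-induced genes outside the member list held 13 of 34 higher, 7 lower and 14 not passing. That is 58.8% called, beside 48.1% of all tested genes. GBP1 (ENSCAFG00845018127), a guanylate-binding protein that attacks intracellular pathogens, rose from 33.9, 31.2 and 34.3 to 366, 335 and 360, which is 10.4-fold (log2 fold change 3.38, SE 0.120, adjusted p = 8.12e-11). IDO1, an enzyme of tryptophan breakdown strongly induced by interferon gamma, rose from 247, 252 and 221 to 511, 592 and 516 (2.24-fold, adjusted p = 1.42e-07). PLSCR1, phospholipid scramblase 1, fell from 788, 810 and 822 to 307, 334 and 297 (2.58-fold, adjusted p = 3.73e-09). RBCK1, a subunit of a ubiquitin ligase complex, rose 1.94-fold amid neighbours with a median log2 fold change of 0.80.

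Of 17 tested class I presentation genes, 9 rose, 4 fell and 4 did not pass, or 76.5% called beside 48.1% of all tested genes. Their median log2 fold change was 0.28, beside -0.01 for all tested genes. B2M, the light chain of class I molecules, rose from 4636, 4464 and 4934 to 5929, 5789 and 6103 (1.27-fold, adjusted p = 3.82e-05). ERAP1, which trims peptides for class I, rose 1.76-fold (adjusted p = 1.75e-08). The class I heavy chain genes DLA-64 and DLA-12 rose by log2 fold changes of 0.64 and 0.57, and their near-identical sequence makes the split of reads between them uncertain. Besides PSMB5 and PSMB6, the genes that fell were the chaperones PDIA3 and CANX, by 0.27 and 0.25 on the log2 scale, both named after their values were seen.

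**Figure D5:**
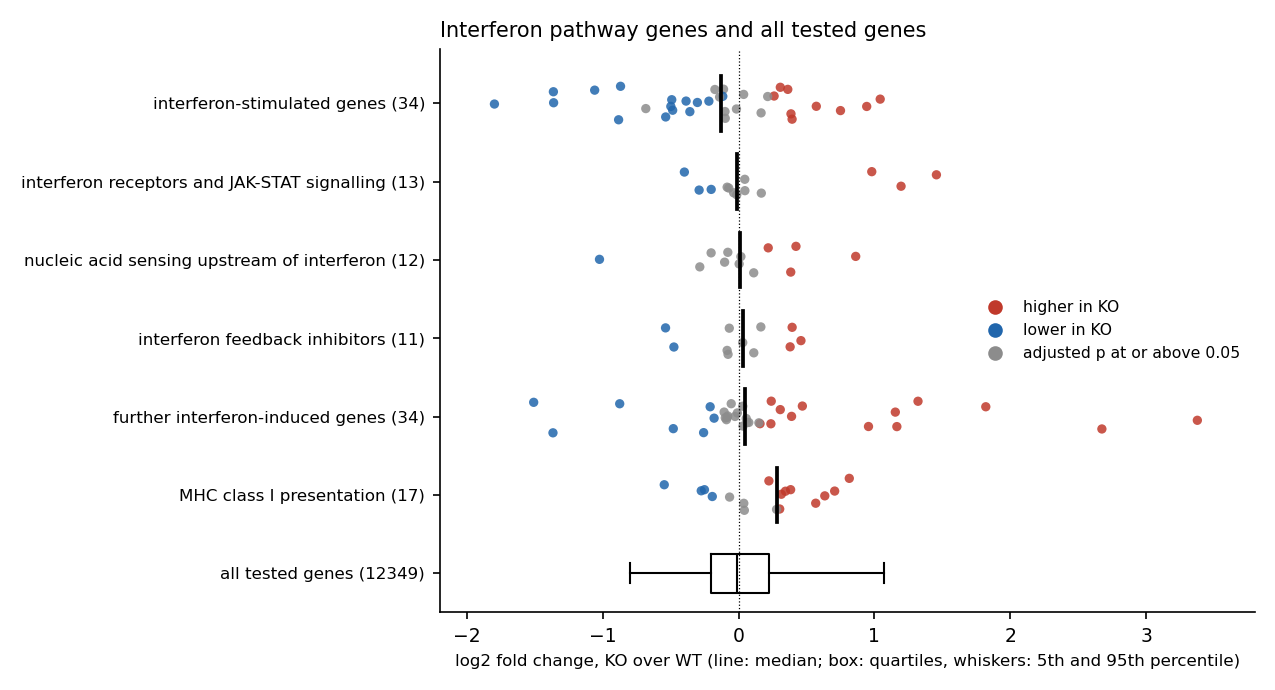
Log2 fold change of KO over WT for each tested gene (points, coloured by call) in 6 groups of interferon pathway genes, with group medians as lines, above a box of all 12349 tested genes. The medians are -0.13 for the 34 interferon-stimulated genes, 0.28 for class I presentation and -0.01 for all tested genes.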

How the data were processed

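The authors deposited a table of normalized counts for 6 libraries, a signal in which values are not whole reads and no common step recovers them, so no count test was run. The submitters' processing notes name STAR 2.5.2b, featureCounts and DESeq2 1.14.1, beside FastQC and Picard 2.8.1 for quality; the genome build is not given in the sources used here. Per the labels' protocols, libraries were poly-A selected, stranded and read as 75-base pairs; whether counting used strand is not given. Deposited beside these are, per the file headers, the authors' mean, log2 fold change with its standard error, score, p-value and adjusted p-value.

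The test, on log2(value + 1) for genes whose 6-library mean was 10 or more, was limma 3.58.1 in R 4.3.3 (trend and robust options, two-sided, Benjamini-Hochberg adjustment, threshold 0.05). Fold changes on this scale understate low genes. Simulated data with known changes and normal noise on the log2 scale were used to check the fit. Changes were planted only above a set WT level, so the check does not cover changes in members as scarce as HERC5 and OASL. Pairs of libraries of a group differed by a chi-square per gene of 3.08 to 11.5. As it was taken on normalized counts, it cannot be set against sampling noise. Depth in reads is unknown. Members and lists were chosen with earlier results of these data known. Members past the threshold with at least 1.5-fold change or a mean of at least 1000 were named by rule with every library's value, as were CDH1, up to 4 called genes per list, fixed pathway genes and neighbours; further values were added for completeness. Some listed markers are given by sums alone. A gene that the rule takes is not reported here. Gene order came from RefSeq symbols, all 34 members placed. Library rescaling (equal totals, or a trimmed mean of log ratios, TMM), pseudocounts of 0.5 and 5, no filter, a minimum mean of 50, plain limma, a replicate block, leaving out each library and the authors' calls were tried.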

Additional observations from a re-analysis of the deposited data

Results flagged for a closer look

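The authors' deposited mean of normalized counts was not used in the comparison, and for 9 of the 34 members (26.5%) it lies above the value of every library here, as for 15.9% of all tested genes. The deposited means are 1702 for STAT2, 1183 for IRF9, 215 for IFI35, 975 for IFIH1, 168 for DHX58, 635 for ISG15, 567 for UBA7, 1096 for EIF2AK2 and 362 for RSAD2. The highest of the 6 libraries reached 1509, 1126, 158, 852, 115, 613, 443, 1079 and 272 for the same genes in that order. Over the whole table, the mean of these 6 libraries was at most 1.5 times the deposited one, with 60 genes within 1e-06 of that value, which is the ratio a mean over 9 libraries would give. Any further libraries are not analysed here, and the cells they came from are not known.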

How the results depend on the processing

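Across 15 alternatives, members called higher numbered 9 to 11 and lower 12 to 16. Of the 24 called members, 21 kept call and direction wherever a value was given; ADAR, HERC5 and IFIH1 lost the call in at least 1 alternative, and PARP14, RSAD2, OASL and CMPK2 passed in at least 1. The members' median log2 fold change was -0.13, -0.071 with libraries rescaled to equal totals (all tested genes -0.01 and 0.046), and -0.10 to -0.19 when leaving out 1 library. The genes whose sign changed were all uncalled. TRIM21 had a log2 fold change of 0.041 with equal totals. Leaving out 1 library, TRIM21 ran from -0.061 to 0.032, IRF9 from -0.076 to 0.13, IRF3 from -0.069 to 0.058 and RAD50 from -0.0025 to 0.12. The cause was not tested. HERC5 and OASL gave no value at a minimum mean of 50. With the replicate number as a block, 3000 genes were higher and 3118 lower. In that fit 9 members rose and 14 fell, ADAR being lost (adjusted p = 0.0524). Deviations of same-numbered libraries from their group means correlated at -0.0395 to 0.0537, and 1 of 3 WT libraries correlated best with its own number. With 3 libraries per group, these values cannot decide whether same-numbered libraries were paired. Precision is limited by 3 libraries per group and, for HERC5, OASL and IFIT3, by low values.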
